A study of Mus musculus with 4 samples.

Results

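CTCF binding at the Hox gene clusters was followed in 4 ChIP-seq libraries of the mouse line WEHI-231, which comes from a B cell lymphoma of the strain (BALB/c x NZB)F1. Of these, 2 libraries (control replicates 1 and 2) came from cells labelled control, and 2 (knockdown replicates 1 and 2) from cells carrying a stable knockdown of the transcription factor TFII-I. Both kinds of cells were grown in the same medium, and the chromatin was precipitated with the same commercial CTCF antibody. The sources used here do not give whether the control cells carry a vector, whether the knockdown line is 1 clone or the remaining level of TFII-I, and peak lists alone cannot check the labelled cell type. Peaks of the 4 lists were merged where they shared at least 1 bp. The Hox regions are those with a centre in one of 4 windows of the build mm9. These are HoxA on chromosome 6 from 52050000 to 52300000, HoxB on chromosome 11 from 96000000 to 96300000, HoxC on chromosome 15 from 102700000 to 102950000 and HoxD on chromosome 2 from 74450000 to 74650000. The windows held 25 of the 29116 merged regions: 5 in HoxA, 9 in HoxB, 6 in HoxC and 5 in HoxD. They are numbered here along the chromosome within each window, so that HoxA-2 is the second region of the HoxA window.

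Hox genes encode homeodomain transcription factors that give cells along the body axis their positional identity, and the order of the genes in a cluster follows the order in which they are used along that axis. In blood, Hoxa9 and Hoxa10 act in stem and progenitor cells and are mostly shut off as B cells mature, and Hoxb4 is known for expanding blood stem cells. CTCF is a zinc finger protein that anchors chromatin loops, and within Hox clusters its sites are known to lie at borders between active chromatin and chromatin silenced by Polycomb proteins. By its title the series asks if TFII-I brings CTCF to the promoters of genes.

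All 38 Hox genes considered were found in a RefSeq gene table of the build GRCm38.p6, which was used for gene order only, because its coordinates are not those of mm9. In that table the 10 HoxA genes run from Hoxa2, needed for the second pharyngeal arch, to Hoxa13, a gene of the distal limb, between Skap2 on one side and Evx1 on the other. The 10 HoxB genes run in the other sense, from Hoxb13, a prostate and tail gene, to Hoxb1, a hindbrain gene, between Ttll6 and Skap1. The 9 HoxC genes run from Hoxc13, active in hair follicles, to Hoxc4, between Calcoco1 and Smug1, and the 9 HoxD genes run from Hoxd13, a digit gene, to Hoxd1, between Evx2 and Mtx2. Regions are therefore given by position, and which Hox gene lies next to a given region was not analysed here.

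The promoter sequences of the genes were searched for the core of the CTCF motif, because the series asks about CTCF at promoters. RefSeq promoters (GRCm38.p6, 250 bases before to 50 bases after the gene start) were at hand for 22 of the 38 genes, 24 promoters in all. The core, written CNAGGNGGC and searched on both strands, was present in 2 of the 24 (8.33%), against 8.38% of 32851 promoters of all genes. The fully written form CCAGGGGGC was in 0 of the 24 and in 1.03% of all promoters. The share in Hox promoters was thus next to that of all promoters, although the Hox promoters had a median GC content of 57.7% against 52.7%. Both matches are printed with the core in capitals, and no peak position can be set beside them since the builds differ. The Hoxa13 match is on the reverse strand, with its first base 26 bases before the start. The stretch shown is all 250 bases before the start (minus strand, chr6:52260881-52261130 of GRCm38.p6). Hoxd10 is a gene of lumbar motor neurons and the hindlimb. Its match is on the forward strand, with its first base 62 bases before the start, and is shown with 29 bases (plus strand, chr2:74691819-74691847 of GRCm38.p6).
Hoxa13: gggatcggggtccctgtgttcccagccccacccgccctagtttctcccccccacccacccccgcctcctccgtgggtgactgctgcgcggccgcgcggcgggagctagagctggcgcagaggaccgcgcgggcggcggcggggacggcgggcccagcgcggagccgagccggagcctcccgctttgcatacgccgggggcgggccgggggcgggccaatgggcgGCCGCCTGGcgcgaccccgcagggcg
Hoxd10: acgtgacctgCAAGGAGGCtgcggctcaa

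Centres of neighbouring regions within a window lay a median of 16.7 kb apart. Spacings inside a window cannot exceed its length, and with the 8 spacings that cross the window edges the median was 21.4 kb. Over all regions the median between neighbours was 29.3 kb, and the difference was not tested. The medians of the single windows were 24.4 kb in HoxA, 17.1 kb in HoxB, 16.7 kb in HoxC and 14.8 kb in HoxD. From first to last region the array spanned 94.4 kb in HoxA, 166 kb in HoxB, 126 kb in HoxC and 54.1 kb in HoxD. HoxD was therefore the shortest and HoxB the longest array. Windows of the same length elsewhere usually held fewer regions. Tiles of 250 kb held a median of 2 regions, 24.8% of them held at least 5 as in HoxA, and 18.7% at least 6 as in HoxC. Of the 300 kb tiles 11.0% held at least 9 regions as in HoxB, and of the 200 kb tiles 18.5% held at least 5 as in HoxD. From 11.0% to 24.8% of tiles were thus as full as a Hox window, and the count is not read as particular to Hox genes.

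The distance to the nearest region outside the window differed from array to array. The last region before the HoxD window lay 362 kb from HoxD-1, a distance reached by 4.37% of all neighbour spacings, and the next one after HoxD-5 lay 249 kb away (6.81%). The HoxA array stood 166 kb and 271 kb from its outer neighbours, distances reached by 10.7% and 6.14% of all spacings. HoxC had 159 kb on the side of HoxC-1 and 38.3 kb after HoxC-6, reached by 11.3% and 42.5%. HoxB had a neighbour 12.0 kb before HoxB-1 and the next one 127 kb after HoxB-9, reached by 72.2% and 14.5%. The longest of these distances, before HoxD-1, was thus matched by few spacings of the lists, and the one before HoxB-1 by most. Within the windows the widest step was 64.2 kb, between HoxC-4 and HoxC-5, and the shortest was 1.79 kb, between HoxD-1 and HoxD-2.

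**Figure D1:**
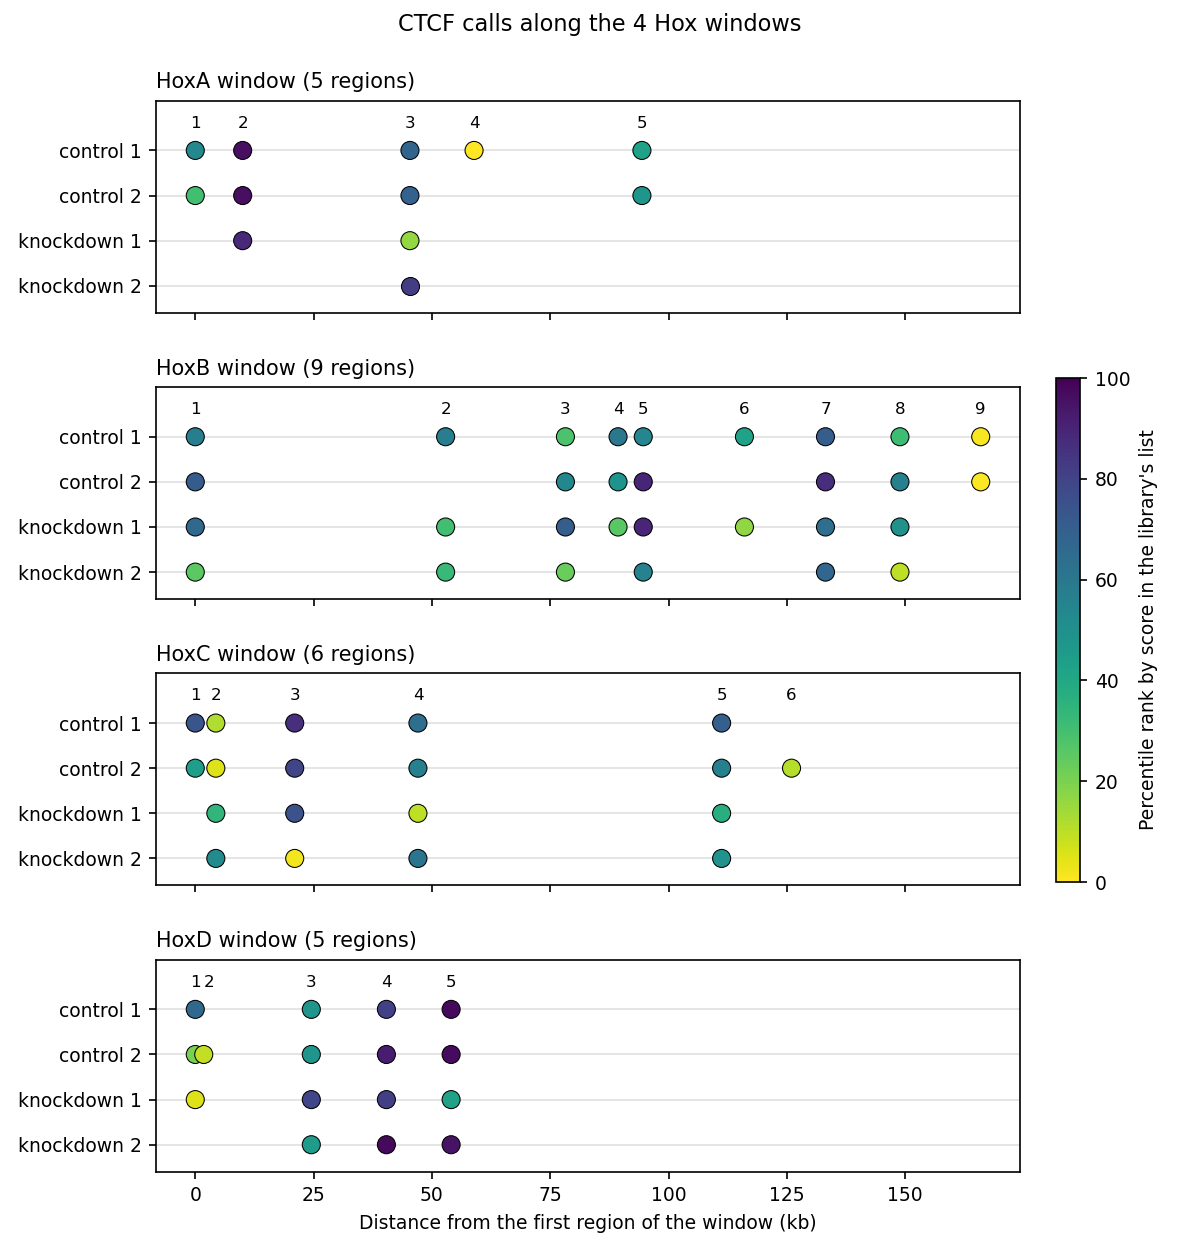
CTCF calls in the 4 Hox windows, by library (rows) and by distance in kb from the first region of the window (x axis), with colour giving the percentile rank of the peak by score within its own list (100 the strongest). The HoxA rows thin out from 5 and 4 calls in control replicates 1 and 2 to 2 and 1 in knockdown replicates 1 and 2, while the HoxB rows hold 9, 7, 8 and 6 peaks.

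The score is the authors' value for a peak within its library, with a lowest value of 50. A score of this kind grows with the number of sequenced tags, so scores are given per library and the libraries are compared by the percentile rank of a peak among all peaks of its library (100 the strongest). The median over all peaks of a list was 111 for control replicate 1, 107 for control replicate 2, 85.5 for knockdown replicate 1 and 79.1 for knockdown replicate 2. Nothing in the labels says that the replicates were grown apart, and the p-values given here then measure only a spread that may be technical.

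HoxA had the fewest knockdown calls. Its strongest region was HoxA-2 (chromosome 6 from 52171513 to 52172028), with scores of 273 and 264 in control replicates 1 and 2, 146 in knockdown replicate 1 and no call in knockdown replicate 2. Its percentile rank was 96.3 in both controls and 88.8 in knockdown replicate 1, so it was among the strongest peaks wherever it was called. The nearest peak of knockdown replicate 2 lay 34885 bp away. Among the 647 regions with a control rank at least as high, 9 (1.39%) had no call in knockdown replicate 2, HoxA-2 included, and 0 had none in knockdown replicate 1. HoxA-3 (52206784 to 52207450) was the one HoxA region called in all 4 libraries, with scores of 142 and 140 in the controls and 59.6 and 117 in knockdown replicates 1 and 2. The knockdown replicates placed it far apart in their lists, at percentiles 16.2 and 82.1, with the controls at 67.7 and 69.3 in between.

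The outer HoxA regions were found in control cells alone. HoxA-1 (52161452 to 52162054), the first of the window, scored 115 and 81.1 in control replicates 1 and 2, and the nearest knockdown peaks lay at a distance of 9609 bp in replicate 1 and 44859 bp in replicate 2. HoxA-5 (52255881 to 52256390), the last of the window, scored 99.5 and 104, and no knockdown peak came within 48517 bp. Both stood in the middle of the control lists, at a mean percentile of 41.5 and 44.9. HoxA-4 was a call of control replicate 1 alone with a score of 50.01, at the lower limit of the list. The calls that remained in the knockdown cells were thus HoxA-2, in replicate 1 alone, and HoxA-3, in both replicates. Position in the array did not set them apart, since HoxA-2 lay 10.0 kb from HoxA-1 and HoxA-4 is also an inner region.

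HoxB kept most of its regions. HoxB-1 (chromosome 11 from 96006781 to 96007377), the first of the window, scored 124 and 144 in control cells and 103 and 63.3 after knockdown. HoxB-5 (96101396 to 96102087) scored 118 and 198 in control cells and 149 and 83.6 after knockdown, and HoxB-3 scored 80.2 and 112 against 108 and 62.0. For HoxB-3 and HoxB-5 the control and knockdown percentiles overlapped, and the 2 controls differed from each other by more than the group means did. The strongest HoxB region by mean control rank was HoxB-7 (96139931 to 96140569), with scores of 149 and 189 in control cells and 99.96 and 94.5 after knockdown. Its percentiles were 70.6 and 87.2 in control cells and 64.3 and 67.3 after knockdown. A percentile depends on the length of the list, and by position in the list (1 the strongest) the knockdown places 6816 and 4998 lay between the control places 7202 and 3060. HoxB-8 was also called in all 4 libraries, with scores of 84.2, 118, 85.1 and 55.2 in control replicates 1 and 2 and knockdown replicates 1 and 2.

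The remaining HoxB regions were missed by at least 1 library. HoxB-2 (96059788 to 96060173) had scores of 124 in control replicate 1 and of 69.2 and 67.7 in the knockdown libraries, but control replicate 2 had no peak within 24811 bp. That pattern of calls occurred in 1.03% of all regions. HoxB-4 scored 128 and 105 in the controls and 66.2 in knockdown replicate 1, with the nearest peak of knockdown replicate 2 at 4831 bp. HoxB-6 was called in control replicate 1 (99.4) and knockdown replicate 1 (59.8). HoxB-9 (96172805 to 96173305), the last of the window, was a call of both controls with scores of 51.0 and 50.5, at percentiles 1.07 and 0.444 of the control lists. It was thus among the weakest peaks of the control lists, and neither knockdown list held it.

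In HoxC the order of the regions by score differed between libraries, the controls included. HoxC-1 scored 157 in control replicate 1, behind HoxC-3 alone, and 99.4 in control replicate 2, behind HoxC-4 and HoxC-5 too. A changed order was not particular to HoxC. HoxD-4 (126) stood ahead of HoxD-5 (78.6) in knockdown replicate 1 and behind it in both controls. The strongest HoxC region in the controls was HoxC-3 (chromosome 15 from 102817730 to 102818387), with scores of 194 and 163 in control replicates 1 and 2, 114 in knockdown replicate 1 and 51.0 in knockdown replicate 2. Its percentile was 86.4 and 79.4 in control cells and 74.8 and 1.73 after knockdown, so it was nearly the weakest peak of knockdown replicate 2 and still strong in replicate 1. HoxC-2 (102801070 to 102801716) had the opposite order. It was weak in both controls, with scores of 61.1 and 54.8, and scored 72.5 and 81.1 in the knockdown libraries, where in replicate 2 it was second to HoxC-4 among the 4 HoxC peaks. Its percentiles were 12.0 and 5.42 in control cells and 34.5 and 52.6 after knockdown.

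HoxC-1 (102796728 to 102797365), which lies 4.35 kb before HoxC-2, was absent from both knockdown lists. It scored 157 and 99.4 in the controls, and the nearest peak of each knockdown library was that of HoxC-2, 3881 bp away. HoxC-4 (102843763 to 102844434) scored 136 and 117 in control cells and 56.0 and 88.5 after knockdown, with the percentiles of the knockdown replicates 10.1 and 61.3. HoxC-5 scored 148 and 117 against 74.3 and 78.0, with percentiles of 70.3 and 56.4 against 36.9 and 48.4. By position in the list its groups overlapped, at 7264 and 10398 in control cells and 12046 and 7893 after knockdown. HoxC-6 (102922850 to 102923235), the last of the window, was a call of control replicate 2 alone with a score of 59.9.

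HoxD held the strongest Hox region of the control lists. HoxD-5 (chromosome 2 from 74553719 to 74554531), the last of the window, scored 297 and 276 in the controls, at ranks 661 and 728 of the lists. In knockdown replicate 2 it scored 165 and stood at rank 761, near its control place. In knockdown replicate 1 it was called as 2 separate peaks of 377 and 292 bp with scores of 78.6 and 70.1, the higher at percentile 42.3. It was the one Hox region with more than 1 peak of a library, and 0.694% of all regions had such a split. The knockdown replicates thus differ at this site by more than the groups do.

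The other HoxD regions included the best kept of the strong regions. HoxD-4 (74540080 to 74540817) scored 176 and 218 in control cells and 126 and 199.8 after knockdown, with percentiles of 81.2, 92.5, 81.4 and 97.6. In knockdown replicate 2 it stood at rank 369, the highest rank of any Hox peak in the 4 lists. HoxD-3 scored 107 and 104 in control cells and 122 and 75.9 after knockdown. HoxD-1 (74499794 to 74500332), the first of the window, scored 140 and 69.6 in the controls and 53.2 in knockdown replicate 1, and its nearest peak of knockdown replicate 2 lay 24087 bp away. HoxD-2 was a call of control replicate 2 alone with a score of 58.0.

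**Figure D2:**
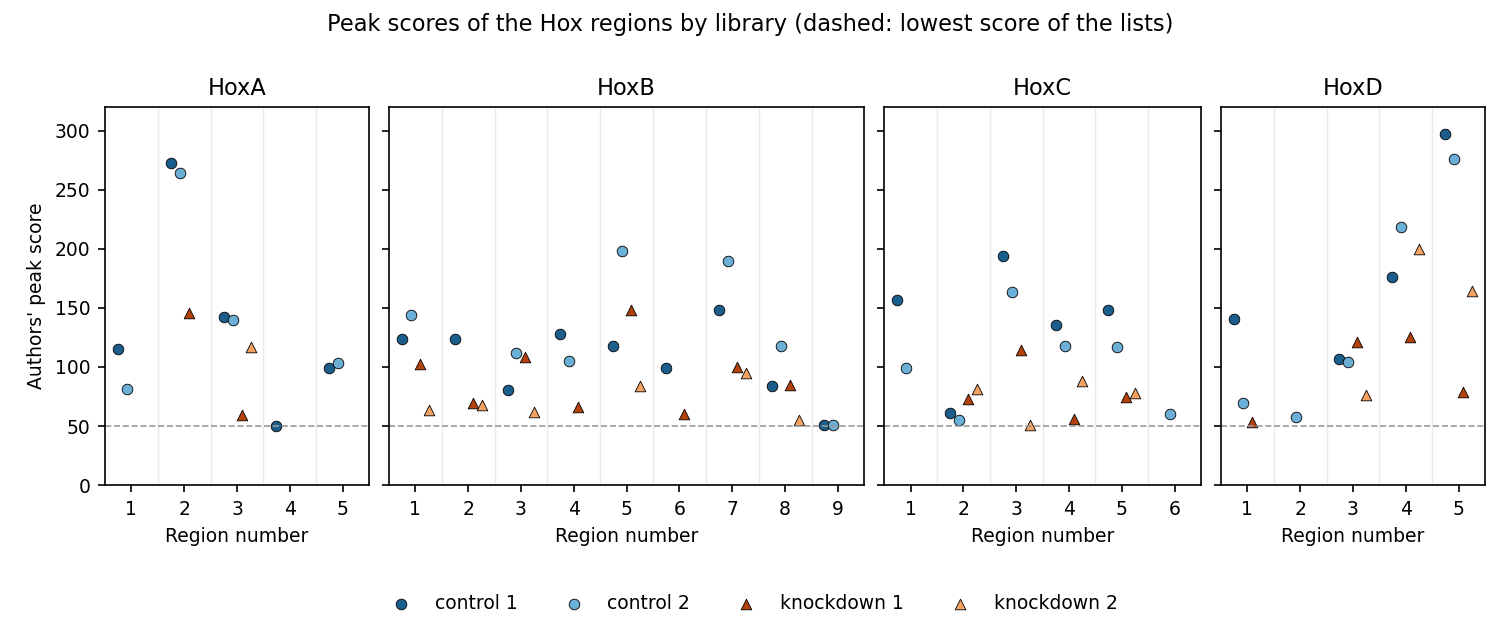
Authors' peak scores (y axis) of each Hox region (x axis, numbered along the chromosome) in the 4 libraries, with circles for controls and triangles for knockdown libraries and no symbol where there was no call. HoxA-2 and HoxD-5 reach 264 to 297 in the controls and are the highest circles of the plot.

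Counted over the windows, the knockdown calls were close to those of all regions. Of the 25 Hox regions 13 (52.0%, exact 95% Clopper-Pearson interval 31.3 to 72.2%) were called in all 4 libraries, against 40.3% of all regions, and 20 (80.0%) were called in both controls, against 71.4%. Knockdown replicate 1 had a call in 16 of these 20 (80.0%), against 77.6% of all regions called in both controls. Knockdown replicate 2 had a call in 13 of the 20 (65.0%), against 64.1%. Neither knockdown library had one in 4 of the 20 (interval 5.73 to 43.7%), against 14.8%. These 4 are HoxA-1, HoxA-5, HoxB-9 and HoxC-1. None of the 25 regions was called in a knockdown library without a control call, which allows a share of up to 12.0% by the rule of 3 counts (3 of 25) and up to 13.7% by the exact interval, and 5.84% of all regions were so called. These shares are not far from the background, and the background shares of 40.3% and 14.8% lie within the intervals. The intervals cover counting error over regions, which share libraries and are not replicates.

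The call rate depends on how strong a region is in the controls, so the Hox regions were also set beside regions of the same control rank. For this, all 20780 regions with a call in both controls were cut by mean control percentile into 10 equal groups of 2078. In the weakest group 48.2% were without any knockdown call, in group 4 it was 17.3%, in group 6 it was 7.36%, and in the strongest group it was 0.241%. HoxB-9 fell in group 1, HoxA-1 and HoxA-5 in group 4 and HoxC-1 in group 6. Adding up the shares of their groups gives 2.48 regions without a knockdown call among the 20 Hox regions, where 4 were found. It gives 16.1 calls for knockdown replicate 1, where 16 were found, and 13.4 for knockdown replicate 2, where 13 were found.

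By cluster the counts were uneven. In HoxA 1 of 4 regions called in both controls had a call in knockdown replicate 2, where the shares of their groups add up to 2.81, and 2 of 4 had one in replicate 1, where they add up to 3.34. In HoxB the counts were 5 of 7 in replicate 2 (4.41 by group share) and 6 of 7 in replicate 1 (5.43). In HoxC the count was 4 of 5 in replicate 2 (3.25) and in replicate 1 (3.91), and in HoxD it was 3 of 4 in replicate 2 (2.91) and 4 of 4 in replicate 1 (3.41). HoxA is the one cluster below its group shares in both knockdown replicates. With 4 regions in the cluster, the difference between HoxA and the other clusters was not tested.

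**Figure D3:**
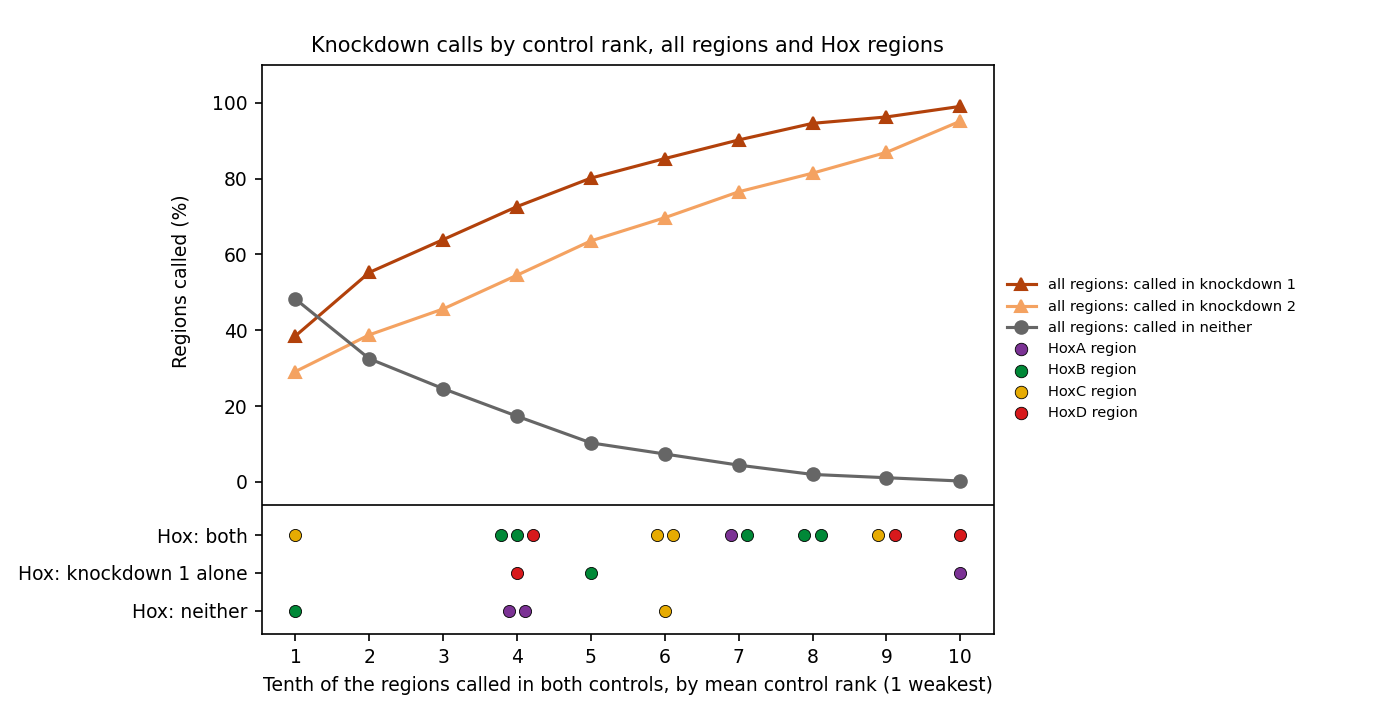
Share of regions called in knockdown replicates 1 and 2 or in neither (y axis, percent, lines, all 20780 regions called in both controls) by group of control rank (x axis, 1 weakest to 10 strongest), with the 20 Hox regions called in both controls as dots in the rows underneath. HoxA-2 is the dot of group 10 called in knockdown replicate 1 alone, and the HoxA dots in the row for neither are HoxA-1 and HoxA-5.

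Hox peaks were fewer in the knockdown libraries in about the proportion of the complete lists. The windows held 23 and 22 peaks in the 2 controls and 19 and 14 in knockdown replicates 1 and 2, means of 22.5 ± 0.707 and 16.5 ± 3.54 (SD, n = 2). Both knockdown libraries had fewer peaks than both controls. The ratio of knockdown to control means was 73.3%, and for the complete lists it was 71.1%. The two-sided exact permutation test gave p = 0.333, the smallest p that 2 libraries against 2 allow, so this design cannot reach 0.05.

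The clusters differed in these numbers too. HoxA held 5 and 4 peaks in control cells and 2 and 1 after knockdown, a ratio of means of 33.3%. HoxC held 5 and 6 against 4 and 4 (72.7%). These 2 clusters showed no overlap between the groups, each with an exact permutation p = 0.333. The complete lists did not overlap either, with 24467 and 23873 peaks against 19076 and 15309 (71.1%), and the HoxC ratio was near theirs. The share of other windows without overlap was not analysed here, so the separation is not read as particular to these clusters. With all lists cut to the 15309 strongest peaks HoxC held 4 and 4 against 3 and 4 (difference of means -0.5, exact permutation p = 1), so its groups then overlapped. HoxB held 9 and 7 against 8 and 6 (87.5%, exact permutation p = 0.667), and HoxD held 4 and 5 against 5 and 3 (88.9%, exact permutation p = 1), and in both the groups overlapped. For HoxB the difference of means is 0 without control replicate 1 or without knockdown replicate 2, and for HoxD it is 0 without control replicate 2 and 0.5 more peaks in the knockdown without knockdown replicate 2. Adjusted over these 5 comparisons by Benjamini-Hochberg, the exact permutation p was 0.556 for the sum, HoxA and HoxC.

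**Figure D4:**
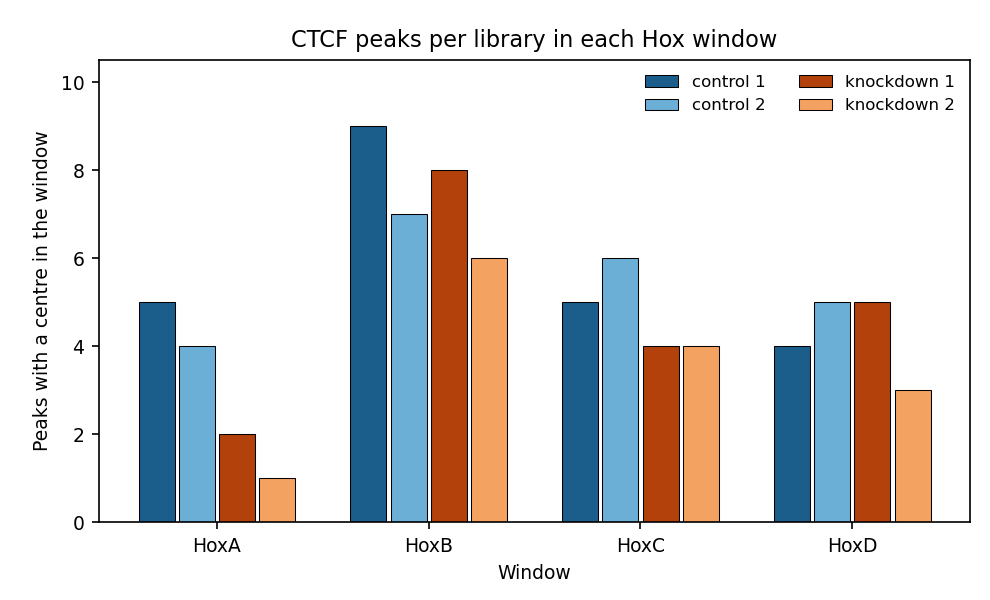
Number of CTCF peaks with a centre in each Hox window (y axis) for control replicates 1 and 2 and knockdown replicates 1 and 2 (bars from left to right), by window (x axis). The bars of knockdown replicates 1 and 2 stand at 2 and 1 in HoxA and at 8 and 6 in HoxB.

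The 13 Hox regions called in all 4 libraries stood lower in the knockdown lists by a median of 14.5 percentile points (mean knockdown minus mean control percentile, median -14.5, range -44.6 to 34.9). Over all 11741 such regions the median was -7.26. The Hox median was -20.2 without control replicate 1, -8.32 without control replicate 2, -11.5 without knockdown replicate 1 and -7.83 without knockdown replicate 2. With lists of equal length it was -3.52 over the 8 Hox regions then called in all 4 libraries, against -0.50 over 8444 regions. Both knockdown percentiles lay below both control percentiles in 4 of the 13 regions (HoxB-7, HoxC-3, HoxC-5 and HoxD-5), against 28.9% of all regions called in all 4 libraries. They lay above in HoxC-2 alone, against 11.1%. In the other 8 regions the groups overlapped. By position in the list, which also depends on its length, both knockdown libraries placed HoxD-5 alone behind both controls, against 15% of all such regions. They placed HoxC-2 and HoxD-3 ahead of both controls, against 23.8%. HoxB-7, HoxC-3 and HoxC-5 overlapped by position. Which regions separate the groups thus depends on the measure of rank, and HoxD-5 and HoxC-2 did so by both. For HoxD-5 the separation was narrow, with position 761 in knockdown replicate 2 against 728 in control replicate 2. HoxC-2 stood at positions 21528 and 22581 in the controls, so control lists cut to the 15309 strongest peaks no longer held it.

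Rank differences vary with the control rank, so each of the 13 was set beside all regions of its group of control rank. Of the 13, 7 lay below the median of their group and 6 above it, and 5 lay between the quartiles. Below the lower quartile were 4 (HoxB-8, HoxC-3, HoxC-4 and HoxD-5), and above the upper quartile 4 (HoxB-5, HoxC-2, HoxD-3 and HoxD-4). HoxC-3, at -44.6 points, had 8.74% of its group at or below it, and its group median was -16.3. HoxC-2, at 34.9 points, had 16.7% of its group at or above it, with a group median of 18.8. HoxD-4 was at 2.68 points, HoxB-5 at 1.12 and HoxD-3 at 14.7, and on the other side HoxB-8 was at -14.5, HoxC-4 at -24.9 and HoxD-5 at -28.5. None of the 13 lay in the outermost 5% of its group on either side.

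**Figure D5:**
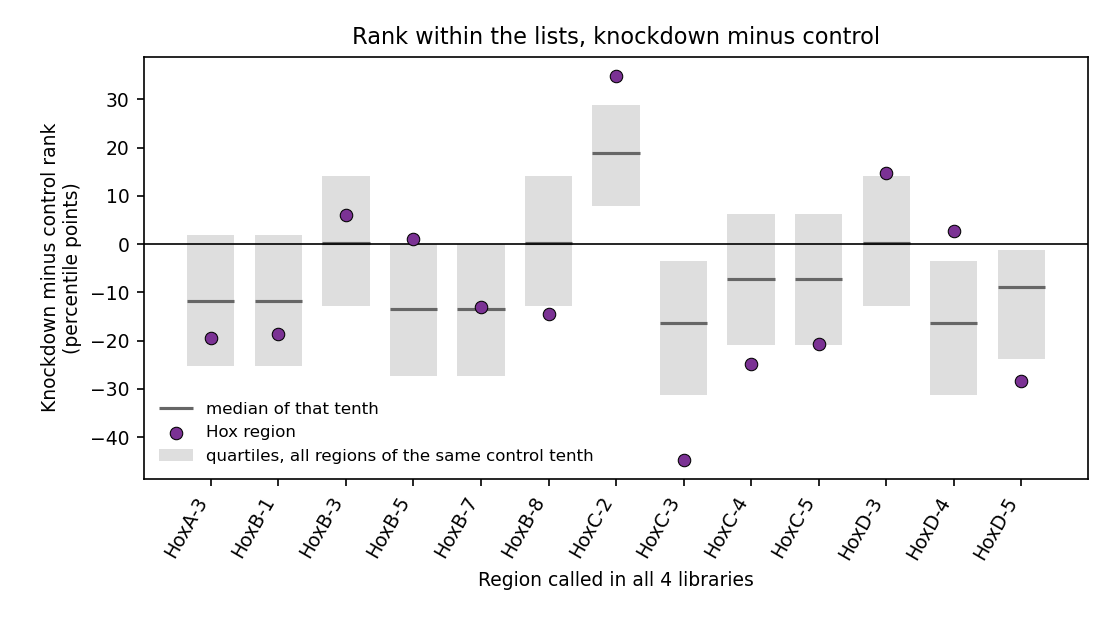
Mean knockdown minus mean control percentile rank (y axis, percentile points) of the 13 Hox regions called in all 4 libraries (dots), with the quartiles (grey bars) and the median (line) of all regions in the same group of control rank. HoxC-3 at -44.6 and HoxC-2 at 34.9 lie outside the grey bars on opposite sides.

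The spread between replicates was of the size of these differences. Control replicates 1 and 2 differed by a median of 11.7 percentile points over the 20 Hox regions called in both, against 14.4 points over all regions called in both. Knockdown replicates 1 and 2 differed by a median of 36.8 points over the 14 Hox regions called in both, against 20.5 points over all such regions. The knockdown replicates therefore placed the Hox regions less alike than the controls did, with HoxC-3 at percentiles 74.8 and 1.73 as the widest case. Hox peaks were also narrower in the knockdown lists, as all peaks were. Their median width was 501 and 583.5 bp in the controls and 313 and 418.5 bp in the knockdown libraries, and that of all peaks was 483 and 507 bp against 328 and 446 bp.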

How the data were processed

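CTCF ChIP-seq peak lists of 4 libraries were used, 1 list per library. Per the submitters' processing notes the tools BWA and HOMER and the build mm9 were used; the sources used here give no roles, versions, caller settings or input. Per the file contents the peak names carry the word MACS. The score of a peak was deposited by the authors; depth and tag counts are unknown, and positions are printed as deposited. Peaks were merged with 1 bp of overlap, the highest score of a library in a region was taken, and percentile ranks were computed within each list. Groups were taken from the sample titles. Peak numbers were compared with a two-sided exact permutation test over libraries; regions and ranks were described beside all regions, with no test. The windows, members and lists were chosen with earlier results of these data known. Alternatives were a score of at least 100, lists cut to the 15309 strongest peaks, 50% reciprocal overlap, merging within 500 bp, membership by any overlap, windows widened by 50 kb, a mean instead of the highest score, the replicate block, leaving out each library and the fully written motif core.

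Regions named by rule were, per cluster, the strongest by mean control percentile, those called in both controls and no knockdown library, those called in knockdown libraries alone, and the first and last of the window; the rest are named because all 25 members are described, after their values were seen. Promoters shown are those with the core. The merging step was tested on simulated lists, copies of control replicate 1 (24467 peaks) with slightly shifted peak ends. There 499 of 500 removed peaks came back as regions of the control lists alone. Real libraries differ more, as in HoxA-2 with widths of 393 and 516 bp in the controls and 259 bp in knockdown replicate 1. Merging under such differences was not tested. Python 3.11.15, numpy 2.4.6, pandas 2.3.3, scipy 1.17.1 and matplotlib 3.10.9 were used.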

Additional observations from a re-analysis of the deposited data

How the results depend on the processing

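The settings for the spacing of regions were chosen after seeing the data. The difference in peak number between knockdown and control was negative under all settings for the sum of the windows, HoxA and HoxC. Leaving out 1 library gave -8.5 to -3.5 for the sum, -3.5 to -2.5 for HoxA, -2 to -1 for HoxC, -2 to 0 for HoxB and -1.5 to 0.5 for HoxD. With lists of equal length it was -0.5 in HoxC (exact permutation p = 1), 0.5 in HoxB and 0 in HoxD, so the groups overlapped there. In HoxA it was -2.5, with 4 and 3 peaks in control cells against 1 and 1 after knockdown. The HoxA groups thus did not overlap (exact permutation p = 0.333, the smallest for 2 libraries against 2). For the sum of the windows it was -2.5 as well. At equal length 2 Hox regions were called in both controls and no knockdown library in place of 4, and 8 were called in all 4 libraries in place of 13. With a score of at least 100, a bar that fewer knockdown peaks reach, 1 was called in all 4 libraries. Fewer peaks enter both settings by construction. Leaving out 1 library gave 4 to 7 control-specific regions and 13 to 16 called in all remaining libraries; fewer calls are then required. The median rank difference was -3.52 with lists of equal length, where the shorter control lists change every control rank, and -20.2 to -7.83 with 1 library left out. With the replicate block the difference for the sum of the windows was -6 (exact sign-flip p = 0.5, the smallest for 2 pairs), and the median rank difference was -14.5, so the block changed no call. Same-numbered libraries did not deviate together (correlation of replicate differences 0.0126 over 11741 regions), so the numbers are not read as pairs. The fully written motif core was in 0% of Hox promoters, since fewer sequences can match it. The absence of depth and tag counts limits all comparisons of scores to within a list.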
